A study of Bos taurus with 12 samples.

Results

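The genes described here are 6 complement genes of bovine muscle cells, C1S, C1R, C3, SERPING1, CFI and CFD, out of 18436 genes in the expression table. They were taken by name, and the names were chosen on the difference between myoblasts and myotubes in these same libraries, with C1S as the leading gene. Their change is therefore given as a description with no test. Of the 6, 4 had a mean of at least 0.5 FPKM (fragments scaled by exon length and by the mapped fragments of the library) over the 6 input libraries and were among the 12302 genes tested. CFI and CFD fell under that level.

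The cells were primary myoblasts from the longissimus dorsi, a back muscle, of newborn Qinchuan cattle. The study's methods name a single animal as their source. Myoblasts (GM) were kept in growth medium with 20% fetal bovine serum to 80% confluence. Myotubes (DM) had spent 4 days in differentiation medium with 2% horse serum and were at 100% confluence. Both media were DMEM/F12 with penicillin and streptomycin, so serum, confluence and time in culture cannot be told apart from differentiation. Each group gave 3 input libraries and 3 libraries immunoprecipitated (IP) for N6-methyladenosine (m6A), 12 in all. The 3 libraries of a group are separate samples by their labels, but nothing states that they came from different animals, so p-values measure the spread between these samples, which may be technical.

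Complement is a cascade of blood and tissue proteins that marks microbes and dying cells. In the classical pathway, the serine proteases C1r and C1s sit on the recognition protein C1q. C1r cleaves C1s, C1s cleaves C4 and C2, and the resulting convertase cleaves C3, the protein on which all routes meet. SERPING1 encodes the C1 inhibitor, which inactivates C1r and C1s. CFI encodes factor I, which degrades the active fragments of C3 and C4, and CFD encodes factor D, which activates factor B in the alternative pathway. The liver supplies most circulating complement, and many other cells make some of the components themselves.

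FPKM summed over all genes to 415740.2 to 434458.3 in the GM inputs and 386436.5 to 390826.9 in the DM inputs. A value above 0 was present for 16016 to 16289 genes per library in GM and 16039 to 16281 in DM. Read counts behind the single genes were not used here, so the precision of a value is the spread of 3 libraries. Of the 12302 genes tested with limma, 603 were higher in DM, which is 4.9%, and 858 were lower, which is 6.97%. A call required that the unadjusted p was under 0.05 and that means of log2(FPKM + 1) differed by a factor of over 1.5. The median log2 fold change of all tested genes was -0.05.

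The C1 proteases had the largest changes among the members on the log2(FPKM + 1) scale. C1S (ENSBTAG00000004840, ARS-UCD1.2 chr5:103407687-103419088, minus strand), the protease that cleaves C4 and C2, read 3.64, 4.47 and 3.99 FPKM in GM and 49.7, 52.0 and 50.4 FPKM in DM. All 3 myotube libraries lay far above all 3 myoblast libraries, and the replicates of each group were close together. The mean was 4.03 ± 0.413 FPKM (SD, n = 3) in GM and 50.7 ± 1.19 FPKM (SD, n = 3) in DM, a ratio of 12.6. The log2 fold change on the log2(FPKM + 1) scale was 3.36 with a standard error of 0.07. By group mean, C1S stood at position 8509 of the 18436 genes in GM and at position 1151 in DM. Its rise ranked 2 among the tested genes on this scale.

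C1R (ENSBTAG00000008612, chr5:103358822-103387417, plus strand), which encodes the protease that activates C1s, read 1.94, 2.34 and 2.50 FPKM in GM and 25.5, 26.1 and 23.9 FPKM in DM. Here too the groups were widely separated. The means were 2.26 ± 0.292 FPKM (SD, n = 3) and 25.2 ± 1.12 FPKM (SD, n = 3), a ratio of 11.1, with a log2 fold change of 3.01 and a standard error of 0.08. C1R moved from position 9931 to position 2441 in the table, and its rise ranked 6. The files list 2 transcripts for C1R and 2 for C1S, and the FPKM is 1 value per gene.

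C3 (ENSBTAG00000017280, chr7:17773675-17810616, plus strand), the central component, was nearly absent from the myoblast libraries, with 0.110, 0.0508 and 0.0661 FPKM, and read 1.37, 1.64 and 1.26 FPKM in DM. The DM values were low but all above GM. The mean went from 0.0755 ± 0.0305 FPKM (SD, n = 3) to 1.43 ± 0.195 FPKM (SD, n = 3), a ratio of 18.9, the largest among the members on the FPKM scale. C3 stood at percentile 19.8 of the table in GM and 42.2 in DM. Its log2 fold change was 1.17 with a standard error of 0.09, and this number depends on the pseudocount, since it was 3.13 with a pseudocount of 0.1 and 1.98 after rescaling to TPM. C3 passed the filter only through its DM values.

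SERPING1 (ENSBTAG00000016267, chr15:80850690-80863385, plus strand), the inhibitor of both C1 proteases, read 3.15, 3.11 and 3.02 FPKM in GM and 7.84, 8.25 and 7.45 FPKM in DM. The DM libraries were again all above GM, with a smaller gap than for the proteases. The means were 3.09 ± 0.0639 FPKM (SD, n = 3) and 7.85 ± 0.403 FPKM (SD, n = 3), a ratio of 2.54. The log2 fold change was 1.11 with a standard error of 0.06. SERPING1 was close to the middle of the table in GM, at percentile 50.0, and at percentile 66.5 in DM.

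The remaining members were hardly present. CFI (ENSBTAG00000034501, chr6:15613508-15664735, plus strand) read 0.0161, 0.0126 and 0 FPKM in GM and 0, 0.0778 and 0 FPKM in DM. CFD (ENSBTAG00000048122, chr7:43416200-43418803, plus strand), a gene better known as adipsin in fat cells, was listed at 0 in 5 libraries and at 0.0312 FPKM in DM replicate 2. It overlaps the end of MED16 on the opposite strand. Neither gene separated the groups. For comparison, in 21.1% of the tested genes all DM values were above all GM values, as in the 4 tested members, but these were chosen on that contrast and nothing is read from the count.

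**Figure D1:**
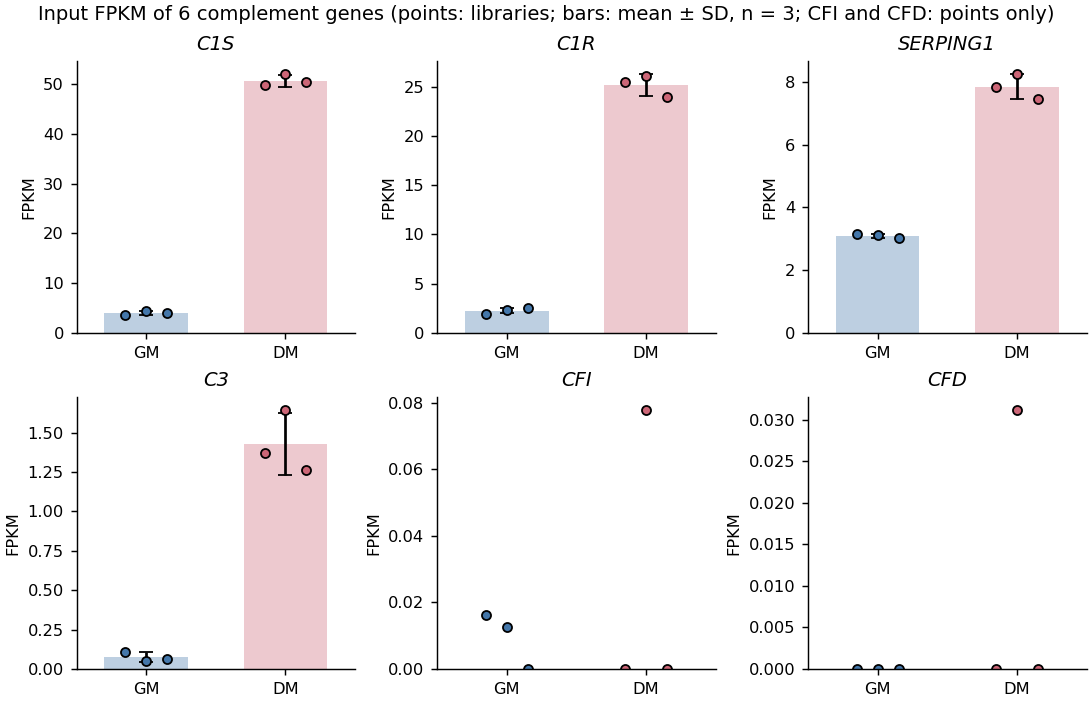
Input FPKM of the 6 complement genes, each panel with its own linear vertical axis from 0; points are single libraries, bars the mean and error bars the SD of 3 libraries, and CFI and CFD have points only. The DM points lie above the GM points for C1S, C1R, SERPING1 and C3, with C1S at 49.7 to 52.0 FPKM in DM, while CFI and CFD stay under 0.1 FPKM.

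Since FPKM is a level per length of transcript, the members can be set against each other. In GM the order was C1S, SERPING1, C1R and C3, and in DM it was C1S, C1R, SERPING1 and C3, with no overlap between neighbours in either order. C1R and SERPING1 thus exchanged places. The ratio of C1S to C1R was 1.88, 1.91 and 1.59 in the GM libraries and 1.95, 2.00 and 2.10 in the DM libraries, a mean of 1.80 ± 0.176 (SD, n = 3) against 2.02 ± 0.0794 (SD, n = 3). The DM ratios were all above the GM ratios, but by less between the highest GM and the lowest DM library than the SD of either group.

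The balance between proteases and inhibitor shifted more. The summed FPKM of C1R and C1S over that of SERPING1 was 1.77, 2.19 and 2.15 in GM and 9.60, 9.47 and 9.98 in DM. The mean ratio was 2.04 ± 0.230 (SD, n = 3) in GM and 9.68 ± 0.263 (SD, n = 3) in DM. C1R and C1S together made up 63.0 to 68.2% of the FPKM of all 6 members in GM and 88.7 to 89.5% in DM. The members summed to 8.85 to 9.98 FPKM in GM and 83.0 to 88.2 FPKM in DM. These are ratios of transcript levels and say nothing of protein.

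**Figure D2:**
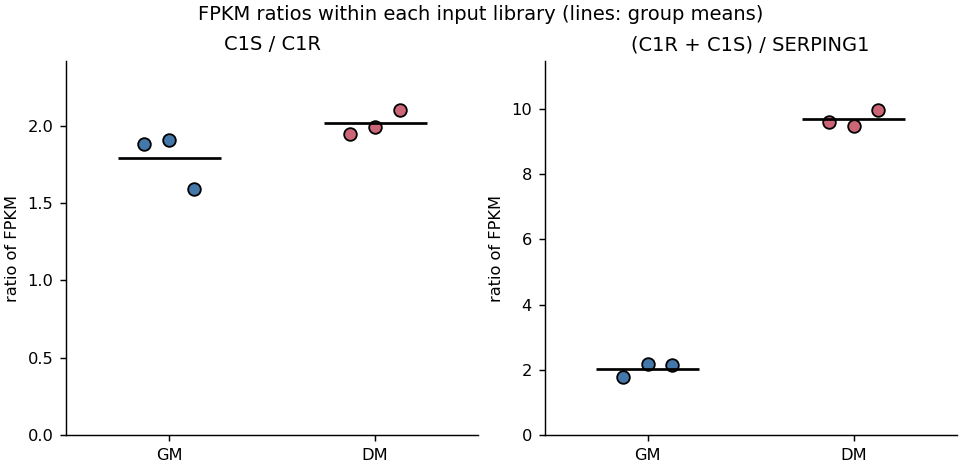
Ratios of FPKM within each input library, C1S over C1R on the left and the sum of C1R and C1S over SERPING1 on the right, on linear axes from 0; points are libraries and lines the means of 3 libraries. C1S stays at 1.59 to 2.10 times C1R in all 6 libraries, while the proteases stand at 1.77 to 2.19 times the inhibitor in GM and 9.47 to 9.98 times in DM.

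C1R and C1S lie next to each other on chromosome 5, with their 3′ ends facing each other and 20269 bases between them. No other gene of the table overlaps either one. On the far side of C1S, at 31913 bases, LPCAT3, a lysophospholipid acyltransferase, was lower in DM, at 16.7 ± 0.319 FPKM in GM and 10.2 ± 1.43 FPKM in DM (SD, n = 3), with a log2 fold change of -0.67 and a Benjamini-Hochberg adjusted limma p of 4.9e-04. On the far side of C1R, at 31645 bases, the unnamed gene ENSBTAG00000037743 was listed at 0 in GM with a mean of 0.314 FPKM in DM and was not tested. C1RL, a C1r-like protease gene further along chromosome 5 (chr5:103273388-103298036, plus strand), was not called, at 0.851 ± 0.143 FPKM in GM and 0.597 ± 0.170 FPKM in DM (SD, n = 3).

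The neighbours of the other members were mixed. Beside SERPING1, YPEL4, at 27784 bases, was higher in DM, at 1.57 ± 0.187 FPKM in GM and 3.08 ± 0.120 FPKM in DM (SD, n = 3), with a log2 fold change of 0.67 and a Benjamini-Hochberg adjusted limma p of 2.7e-04. UBE2L6, a ubiquitin-like protein conjugating enzyme gene at 20895 bases on its other side, was not called, with a log2 fold change of 0.34. GPR108, 6106 bases from C3, was not called either, with means of 12.7 FPKM in GM and 14.1 FPKM in DM. PLA2G12A, a phospholipase gene 10813 bases from CFI, had a log2 fold change of -0.26 and was not called. The other near neighbours, TNFSF9 beside C3, ENSBTAG00000053284 beside CFI, and PLPPR3 and RF00026 beside CFD, were under the filter.

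The genes with the most similar course to C1S were sought by the Euclidean distance between log2(FPKM + 1) values over the 6 libraries, each gene centred on its mean. C1R ranked 3, with a distance of 0.466. The nearest other genes were ENSBTAG00000050008 with a distance of 0.403, MEF2C with 0.450, GNAS with 0.680, PODN with 0.688 and TNFSF18 with 0.766. MEF2C, a transcription factor of muscle differentiation, had means of 7.79 FPKM in GM and 70.1 FPKM in DM. PODN, a small leucine-rich proteoglycan of the matrix, had 2.27 and 23.0 FPKM. SERPING1 and C3 were at positions 173 and 155. With 3 libraries against 3, the measure mostly ranks genes by the size of their rise, and 318 tested genes had a Pearson r over 0.99 with C1S.

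The rest of the pathway was read from a list of 49 other complement genes, of which 26 were matched by name, 23 were not analysed here and 11 of the matched genes passed the filter. Among these 11, 4 were higher in DM and 0 were lower, beside 4.9% and 6.97% of all tested genes, and 7 were not called. The same 4 passed at a Benjamini-Hochberg adjusted limma p under 0.05. The median log2 fold change of the 11 was 0.33. The list was drawn up with earlier results of these data known, and 2 of the 4 higher genes, PTX3 and C4A, passed the filter only through the group in which they were high. The count is a description of the pathway and no support for a difference from other genes.

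Both tested recognition genes were higher in DM, beside 4.9% of all tested genes. This subgroup had 12 listed genes, of which 4 were matched. COLEC12, a scavenger receptor of the collectin family, read 3.55, 3.63 and 3.39 FPKM in GM and 12.1, 13.2 and 11.5 FPKM in DM, a log2 fold change of 1.55 with a standard error of 0.07 and a Benjamini-Hochberg adjusted limma p of 1.2e-06. PTX3, a secreted pentraxin that binds C1q, read 0.434, 0.196 and 0.306 FPKM in GM and 2.33, 2.73 and 2.76 FPKM in DM. Its log2 fold change was 1.46 with a standard error of 0.10 and an adjusted limma p of 1.1e-05, and it was 2.75 with a pseudocount of 0.1. PTX3 passed the filter only through its DM values. In both genes all DM values were above all GM values, beside 21.1% of all tested genes. The other matched members of this group, FCN1 and COLEC10, had means of at most 0.0286 FPKM.

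Among the proteases and their substrates, 2 of 4 tested genes were higher, beside 4.9% of all tested genes. CFB, which encodes factor B, the protease subunit of the alternative pathway convertase, read 0.641, 0.867 and 0.913 FPKM in GM and 8.79, 10.1 and 7.96 FPKM in DM. This gave the largest log2 fold change of the list, 2.46 with a standard error of 0.10 and a Benjamini-Hochberg adjusted limma p of 9.5e-07. C4A, a substrate of C1s, read 0.391, 0.276 and 0.323 FPKM in GM and 4.38, 3.82 and 3.95 FPKM in DM, with a log2 fold change of 1.92, a standard error of 0.08 and an adjusted limma p of 9.5e-07. With a pseudocount of 0.1 it was 3.28, and C4A too passed the filter only through DM. Near-identical copies of C4 can share reads, so the C4A value is uncertain.

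C2, the other substrate of C1s, was just under the filter and read 0.173, 0.145 and 0.123 FPKM in GM and 0.811, 0.973 and 0.694 FPKM in DM. Its DM values were all above GM, beside 21.1% of all tested genes, and nothing is read from this in a gene that was not tested. C4A (chr23:27372094-27386883), CFB (chr23:27415355-27421377) and C2 (chr23:27421810-27433479) lie close together on the minus strand of chromosome 23. MASP2, a protease of the lectin pathway, was not called, with means of 1.47 FPKM in GM and 1.70 FPKM in DM.

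Of the soluble inhibitors, CLU, or clusterin, an inhibitor of the terminal complex, was not called, since its log2 fold change of -0.47 was under the fold threshold. Its means were 12.95 ± 1.47 FPKM in GM and 9.08 ± 0.882 FPKM in DM (SD, n = 3).

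The membrane inhibitors, which protect a cell from its own complement, included the most abundant genes of the list. Of the 3 tested, 0 were called, beside 4.9% higher and 6.97% lower among all tested genes. CD46 read 30.9 to 38.9 FPKM in GM and 36.0 to 40.7 FPKM in DM. CD59 read 20.3 to 25.2 FPKM in GM and 22.3 to 23.9 FPKM in DM. CD55 was low, at 0.607 ± 0.120 FPKM in GM and 1.01 ± 0.0850 FPKM in DM (SD, n = 3). Its log2 fold change of 0.33, with a Benjamini-Hochberg adjusted limma p of 0.017, did not reach the fold threshold. At so low a level the pseudocount of 1 shrinks the fold change. All DM values of CD55 were above GM, beside 21.1% of all tested genes. For CD46 and CD59 the groups overlapped.

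The later components were scarce. C8G, a chain of the terminal complex, was not called, at 0.837 ± 0.172 FPKM in GM and 1.34 ± 0.0645 FPKM in DM (SD, n = 3). Its log2 fold change was 0.35 with a Benjamini-Hochberg adjusted limma p of 0.015, and the pseudocount of 1 shrinks it at this level. C6, C7 and C9 had means of at most 0.0554 FPKM. The 4 matched receptors, C3AR1, C5AR1, C5AR2 and CD93, were all under the filter, with means of at most 0.242 FPKM.

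**Figure D3:**
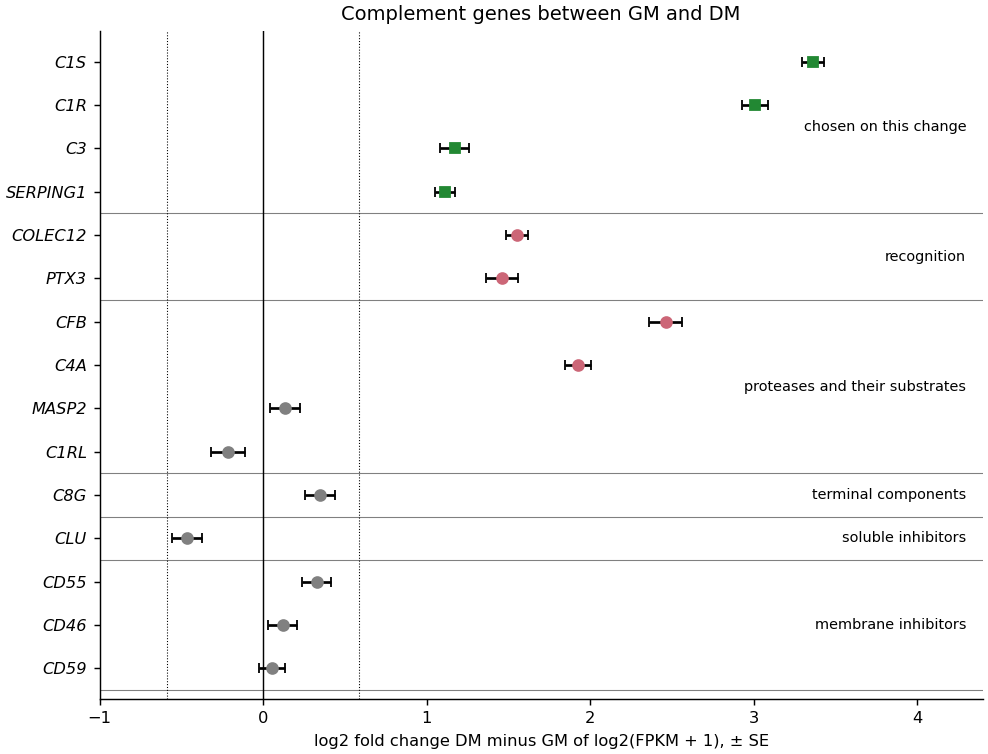
Log2 fold change from GM to DM on the log2(FPKM + 1) scale, with the standard error of the limma fit, for the 4 tested members (squares, chosen on this change) and the 11 other tested complement genes (circles, red where called higher and grey where not called); dotted lines mark a fold change of 1.5. COLEC12, PTX3, CFB and C4A lie to the right of the upper line, and the membrane inhibitors CD46, CD55 and CD59 lie between the lines.

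Related gene groups were read in the same way. SERPING1 belongs to the serpins, a family of protease inhibitors. Of 8 tested serpins without SERPING1, 1 was higher, 1 was lower and 6 were not called, beside 4.9% higher and 6.97% lower among all tested genes. SERPINF1, the secreted protein PEDF, had 230.0 ± 5.90 FPKM in GM and 840.5 ± 25.3 FPKM in DM (SD, n = 3), with a log2 fold change of 1.86 and a Benjamini-Hochberg adjusted limma p of 2.1e-07. SERPINH1, a collagen chaperone, was lower, at 1282 ± 87.6 FPKM in GM and 562 ± 9.48 FPKM in DM (SD, n = 3), with a log2 fold change of -1.19 and an adjusted limma p of 2.9e-06. The median log2 fold change of the serpins was -0.22.

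Of 8 tested coagulation and contact genes, 1 was higher and 0 were lower, beside the same shares of 4.9% and 6.97%. F3, or tissue factor, had 2.84 ± 0.126 FPKM in GM and 6.07 ± 0.265 FPKM in DM (SD, n = 3), with a log2 fold change of 0.88 and a Benjamini-Hochberg adjusted limma p of 1.9e-05. Complement genes are known targets of interferon, interleukin 6 and NF-kappa-B signalling, and of 21 tested genes of these signals 0 were higher and 2 were lower, beside 4.9% and 6.97% of all tested genes. IRF1, an interferon-responsive transcription factor, had 14.2 ± 0.912 FPKM in GM and 5.62 ± 0.904 FPKM in DM (SD, n = 3), with a log2 fold change of -1.20 and an adjusted limma p of 4.6e-05. IL6 had 2.70 ± 0.254 FPKM in GM and 0.561 ± 0.270 FPKM in DM (SD, n = 3), with a log2 fold change of -1.26 and an adjusted limma p of 1.2e-04. The median log2 fold changes of these lists were 0.05 and 0.11. The other 19 signalling genes were not called, with log2 fold changes from -0.14 for CEBPB to 0.56 for IL1R1, which was just under the fold threshold. Some of these were higher in DM by less than that threshold. The adjusted limma p was 1.8e-04 for IL1R1, 0.011 for CEBPD at 0.52 and 0.0015 for IL6ST at 0.42. The smallest among the falls of the 19 was 0.059, for TNFRSF1A at -0.14. Whether these signals acted on the complement genes was not tested.

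The libraries are of bulk cultures, in which a change in the share of a cell type and a change of RNA per cell cannot be told apart. All 12 myogenic markers were tested, and 5 were higher in DM. The embryonic myosin gene MYH3 was among them, with means of 273 FPKM in GM and 659 FPKM in DM. Another 4 were lower, which were the myoblast genes PAX7, MYF5 and MYOD1 and the sarcomeric actin gene ACTA1. The differentiation genes MYOG and MYMK were not called. They were already at means of 197 and 41.1 FPKM in GM, beside 243 and 47.3 FPKM in DM. The 12 myogenic markers summed to 1129 to 1215 FPKM in GM and 1577 to 1630 FPKM in DM. Fibroblast markers were abundant in both groups, with a sum of 16490 to 16660 FPKM in GM and 17320 to 18420 FPKM in DM, COL1A1 the highest. The sum is mostly collagen, with GM means of 6791 FPKM for COL1A1, 5757 for COL1A2 and 2397 for COL3A1, and says little of the other markers. Of 11 tested, 1 was higher, the fibroblast activation protein gene FAP, with means of 37.5 and 104.8 FPKM. The other 10 were not called and were mixed, with log2 fold changes from -0.47 for FBN1 to 0.54 for DPT. Beside these marker counts, 4.9% of all tested genes were higher and 6.97% lower.

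Markers of other complement-producing cells were low. Of 10 matched macrophage markers, 3 were tested, 0 were higher and 1, MRC1, was lower, beside 4.9% and 6.97% of all tested genes. The matched macrophage markers summed to 4.71 to 5.58 FPKM in GM and 2.96 to 4.07 FPKM in DM. The other tested ones, CD68 and FCER1G, were not called. Their means were 1.17 and 1.48 FPKM in GM and 1.465 and 0.8845 FPKM in DM. The means of CSF1R, SPI1 and CD163 were all under 0.1 FPKM. The 6 matched hepatocyte markers summed to 2.33 to 2.56 FPKM in GM and 5.24 to 6.11 FPKM in DM. Of the 2 tested, TTR was higher, with means of 0.374 and 3.66 FPKM, having passed the filter only through DM. APOA1 was not called, with means of 1.92 and 1.74 FPKM. The mean of ALB was at most 0.0201 FPKM.

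Among 9 matched adipocyte markers, 4 were tested, 0 were higher and 1, PPARG, was lower, beside 4.9% and 6.97% of all tested genes. The matched adipocyte markers summed to 10.1 to 10.4 FPKM in GM and 10.8 to 12.7 FPKM in DM, and the means of ADIPOQ were 0.153 and 0.0109 FPKM. CIDEC, with means of 0.127 and 0.796 FPKM, and FABP4, with 0.106 and 0.579 FPKM, were not tested. Their DM values were all above GM, beside 21.1% of all tested genes. The 5 matched endothelial markers summed to 0.755 to 0.995 FPKM in GM and 1.43 to 1.87 FPKM in DM, with ERG, the 1 tested, higher, at means of 0.164 and 1.201 FPKM, so that it too passed the filter only through DM. The 5 matched smooth muscle markers, ACTA2 the highest, summed to 3062 to 3545 FPKM in GM and 2523 to 2698 FPKM in DM, with 1 of 4 tested lower. The part of any of these cell types in the complement values was not tested.

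**Figure D4:**
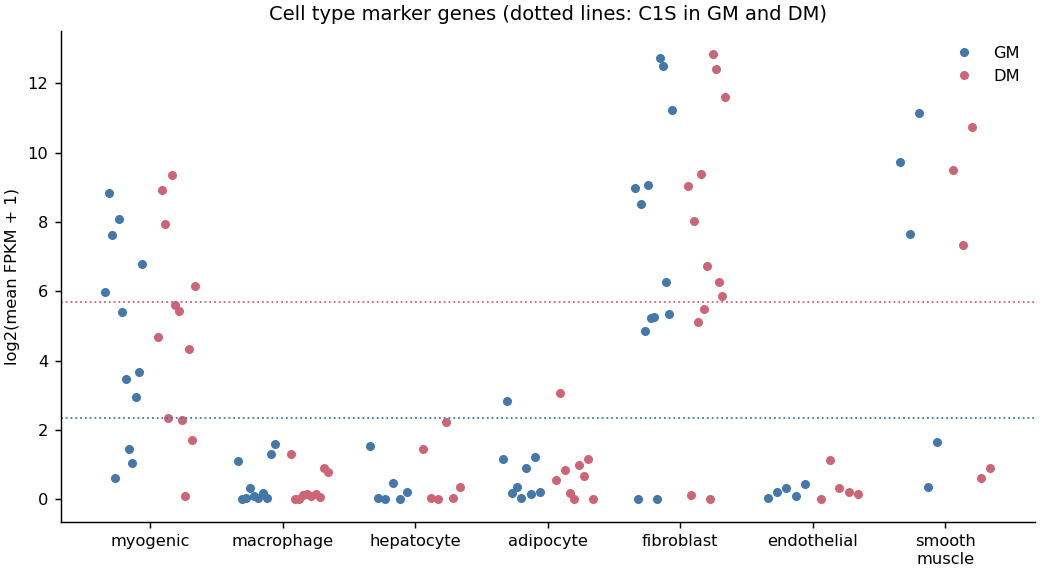
Mean input level, as log2(mean FPKM + 1), of the marker genes of 7 cell types in GM and DM; each point is the mean of 3 libraries for 1 gene, and the dotted lines give C1S in GM and in DM. Most macrophage, hepatocyte and endothelial markers lie near 0 and all lie under the DM line of C1S, while myogenic, fibroblast and smooth muscle markers reach far above it.

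N6-methyladenosine is a mark on messenger RNA that is often found near the stop codon and in the 3′ untranslated region (UTR). The peak lists, 1 for GM with 19739 peaks and 1 for DM with 20790, were each called on the pooled libraries of a group, so each peak is given once per group without replicate error. Fold enrichment is the ratio of IP over input reads in the peak, and a transcript with more reads gives a smaller p-value at the same enrichment. The members carried 4 peaks in GM and 5 in DM. CFI and CFD carried no listed peak.

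C1S had 1 peak in each group, at the very end of its 3′ UTR. The GM peak (chr5:103407687-103407865) was 179 bases long, with a fold enrichment of 2.11 and a false discovery rate (FDR) of 6.2e-04. The DM peak (chr5:103407687-103408014) was 328 bases long, with a fold enrichment of 1.83 and an FDR of 1e-15. These enrichments were weak, at percentiles 24.8 and 19.2 of their lists, whose medians were 3.27 in GM and 3.38 in DM.

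C1R also had 1 peak per group, annotated to the 3′ UTR of a transcript that is not among those listed for C1R in the expression table. The GM peak (chr5:103386883-103387298) had a fold enrichment of 2.44 and an FDR of 3.1e-05 over 416 bases, and it ended 119 bases before the annotated end of the gene. The DM peak (chr5:103386942-103387417) had a fold enrichment of 2.07 and an FDR of 2e-40 over 476 bases and reached that end. They stood at percentiles 33.2 and 25.4. In both C1 protease genes the DM peak therefore had the smaller FDR and the lower enrichment, beside a higher level of the transcript in DM.

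SERPING1 had the same 3′ UTR peak in both groups (chr15:80862999-80863385, 387 bases), with a fold enrichment of 4.23 in GM and 3.55 in DM, at percentiles 62.9 and 52.3. It also had a weak exonic peak in each group, at different places. The GM peak lay in exon 4 of 7, with a fold enrichment of 1.45 and an FDR of 0.025. The DM peak lay in exon 2 of 7, with a fold enrichment of 1.23 and an FDR of 0.076.

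C3 had a listed peak in DM only (chr7:17809918-17810616). It covered 420 exonic bases in 3 blocks up to the end of the gene, with a fold enrichment of 7.19 and an FDR of 1e-12, at percentile 82.1 of the DM list. In GM, where the transcript was at 0.0508 to 0.110 FPKM, no peak was listed. Whether the mark itself differed cannot be read from these lists.

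**Figure D5:**
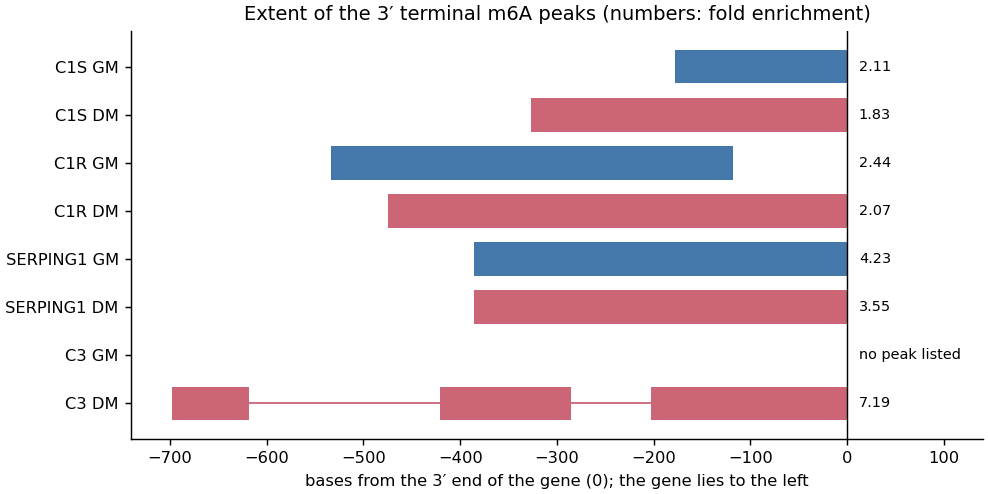
Extent of the 3′ terminal m6A peaks of C1S, C1R, SERPING1 and C3 in the pooled GM and DM lists, in bases upstream of the 3′ end of the gene at 0, with the fold enrichment printed beside each bar; blocks are exonic and thin lines intronic, and peaks have no replicate error. The peaks of C1S and SERPING1 reach the end of the gene in both groups, that of C1R in DM, and C3 has a peak in DM with the highest enrichment, 7.19.

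The 3 overlapping pairs of 3′ UTR peaks could be compared between the groups. The ratio of DM to GM fold enrichment was 0.848 for C1R, 0.867 for C1S and 0.839 for SERPING1, beside a median ratio of 1.05 over all 10239 pairs. All 3 ratios were under 1 and stood at percentiles 24.5, 26.5 and 23.7 of the ratios. None of the 3 differed by over 1.5 times, as did 25% of all pairs. With no replicate error, whether these small differences exceed the spread between cultures could not be tested.

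Among the 11 other tested complement genes, 8 had a GM peak and 9 a DM peak, beside 70.9% and 78.7% of all tested genes. Of the 4 that were higher in DM, COLEC12, PTX3 and C4A had peaks in both groups, and CFB had a peak in DM only, where its transcript was also higher. COLEC12 had a 3′ UTR pair with a fold enrichment of 4.08 in GM and 9.35 in DM. A further GM 3′ UTR peak of COLEC12, with a fold enrichment of 5.07, was in no pair. The 3′ UTR peaks of C4A were also not paired, so their fold enrichments of 9.8 in GM and 3.73 in DM give no direction. The GM peak was in a gene at a mean of 0.330 FPKM. In DM, C4A also had an exonic peak with a fold enrichment of 6.92. The CFB peak was weak, with a fold enrichment of 1.64 and an FDR of 0.013.

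Over all matched genes of the list, tested or not, there were 13 pairs in 11 genes. The fold enrichment was over 1.5 times higher in DM in 5 of the 13 pairs and over 1.5 times lower in 2. Of all pairs, 25% differed by that much, counted over both directions together. The median ratio of the 13 pairs was 1.18. The pairs of C2, C5AR2, C9, CPN2 and SUSD4 were in genes under the expression filter, and C5AR2 was among those higher in DM. The C1RL pair, also higher, joined a GM peak annotated to an exon with a DM peak annotated to the 3′ UTR. C8G had a fold enrichment of 12.8 in GM and 26.6 in DM in its 3′ UTR. CLU, with 7.23 in GM and 4.75 in DM in its 3′ UTR, and C2, with 9.80 and 3.39, were the 2 that were lower. The GM peak of C2 had an FDR of 0.04 at a level of 0.147 FPKM.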

How the data were processed

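Input and m6A IP libraries of GM and DM myoblast cultures were analysed from the tables the authors deposited. The authors trimmed reads with Trimmomatic, aligned them with HISAT2 to ARS-UCD1.2 and computed FPKM per gene with StringTie. Strand-specific (dUTP) libraries were used. Tool versions are not given in the sources used here. For peaks, the authors kept unique, non-duplicate alignments with Sambamba and ran exomePeak on the libraries of each group, with ChIPseeker annotation. The paper also describes peaks of each sample called with MACS2, which were not used here. The deposited fold enrichment is a linear ratio of IP over input. Each peak carries a deposited p-value from exomePeak, not adjusted, and deposited log10 columns of it and of its FDR. The authors' comparisons used edgeR on counts, and those counts were not used here. FPKM gives the depth of no single gene, so the precision is that of 3 libraries.

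The 6 input libraries were compared in R 4.3.3 with limma 3.58.1 (moderated variances with a trend) on log2(FPKM + 1), leaving out genes whose mean was under 0.5 FPKM. This understates the change of low genes. A gene was called where the unadjusted p was under 0.05 and the fold exceeded 1.5. The p-values of the 12302 genes were adjusted together after Benjamini and Hochberg. Peaks were paired in Python 3.11.15 with pandas 2.3.3 and numpy 2.4.6, by at least 1 shared base of exon blocks on the same strand, where 1 GM and 1 DM peak met. Figures were drawn with matplotlib 3.10.9. The scripts were tested on simulated data.

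Named genes are the 6 members, every called gene of the other complement genes, up to 3 called genes in each direction of the serpin, coagulation and cytokine lists, the 5 genes nearest in course to C1S, the nearest genes on the chromosome, and the most abundant markers. Other genes were named to describe a list after their values were seen. The members and lists were chosen with earlier results of these data known. Gene names are those of the deposited table. One gene of the pathway is not reported here and was left out of the list. Alternatives covered the pseudocount, filter, scaling, trend, replicate block, thresholds, left-out libraries and stricter peak sets.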

Additional observations from a re-analysis of the deposited data

How the results depend on the processing

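The rises of C1S, C1R, SERPING1 and C3 and of the 4 other complement genes kept their direction under every alternative run. The members were chosen on this change in these libraries, and the list was drawn up with earlier results known. The kept direction therefore describes the processing and is no further support for the rises. At a fold change over 2, genes called fell from 1461 to 507 (232 higher and 275 lower), and the 4 other complement genes were still called. Whether same-numbered samples of GM and DM were paired is not stated. Their deviations from the group means had correlations of -0.08, -0.12 and -0.21, which cannot settle it with 3 libraries per group. With the replicate block, 1473 genes were called and 4 other complement genes. With each library left out in turn, 1480 to 1521 genes and 4 to 5 other complement genes were called. A pseudocount of 0.1 gave 2014 genes and 6 other complement genes. Rescaling to TPM gave 1762 genes, 970 higher and 792 lower against 603 and 858, and moved the median over all genes from -0.05 to 0.06. C1S was 3.65, C1R 3.38 and SERPING1 1.35 on that scale. C3 was not tested at a mean of at least 1 FPKM. At a fold enrichment of at least 2, 2 of the 3 member pairs were left, since the DM peak of C1S had 1.83. FPKM without counts and peaks without replicates limit all values of low genes.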

Other observations

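Some complement genes had listed peaks at hardly any expression. MASP1, a lectin pathway protease, had 4 peaks in GM at a mean of 0.110 FPKM and 1 in DM at 0.222 FPKM. C5AR2, a receptor of C5a, had a 5′ UTR peak with a fold enrichment of 8.71 in GM and 14.9 in DM at 0.242 and 0.145 FPKM. The reads behind these peaks were not analysed here.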
